A study of Mus musculus with 18 samples.

Results

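The 6 libraries titled control came from mouse heart tissue, in a series of 18 libraries whose other groups (6 MI and 6 HXP) were not used here. They were chosen by that title alone, and every gene of their files was described. The labels give heart as the tissue and control as the group; strain, sex, age, time of collection, part of the heart and any sham operation are not stated in them. Nothing in the labels says that each library came from its own mouse, so that the spread between libraries may be technical, and p-values measure only that spread. Total RNA was depleted of ribosomal RNA and sequenced, and each gene had a level in FPKM (fragments divided by exon length and by library depth), which allows genes of different length to be compared. FPKM is a share of the library: a gene can be lower because others are higher, and fewer cells of a type cannot be told apart from less RNA per cell.

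The working heart muscle cell is packed with sarcomeres, in which myosin pulls on actin under the control of troponin and calcium, and with mitochondria that supply the ATP. Its sarcoplasmic reticulum releases calcium through the ryanodine receptor and takes it back through the SERCA pump. The adult mouse heart burns mainly fatty acids and lactate, and for many of its proteins it uses 1 member of a gene family where skeletal muscle, smooth muscle or the fetal heart uses another.

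The label was checked against the markers of heart muscle. Actc1, cardiac alpha actin (ENSMUSG00000068614, chromosome 2, 114047282 to 114053548, GRCm38), lay between 4272 and 5042 FPKM with a median of 4699 FPKM, and Myh6, the alpha myosin heavy chain of the adult heart (ENSMUSG00000040752, chromosome 14, 54941921 to 54966927), between 2496 and 3565 FPKM with a median of 3047 FPKM. Both were high in all 6 libraries, with no library apart. All 11 cardiomyocyte markers were at 1 FPKM or more. Of the 5 atrial markers, Myl7, the atrial regulatory light chain, lay between 0 and 1.22 FPKM, Sln, the atrial SERCA inhibitor sarcolipin, between 0 and 0.262 FPKM and Myl4, the atrial essential light chain, between 0.138 and 0.354 FPKM, and Bmp10 was listed at 0 in all 6 libraries. The fifth, the natriuretic peptide Nppa, which the ventricle can also make, lay between 89.8 and 348 FPKM. The Y-linked genes Ddx3y (12.4 to 17.2 FPKM) and Eif2s3y (10.2 to 13.7 FPKM) were present in all 6 libraries, and Xist, the RNA of the inactive X chromosome, was at most 0.0585 FPKM.

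The values of a library gave back 76.1 to 81.1 M reads, and 10516 to 10934 genes per library reached 1 FPKM (10762 ± 173, SD, n = 6). Of the 34150 genes listed, 5822 were at 0 in all 6 libraries, the mean reached 1 FPKM in 10812, 10 FPKM in 2776, 100 FPKM in 298 and 1000 FPKM in 39. Headers give each library a number, and libraries with close numbers were put in the same run by a cutoff chosen here. This gave 3 runs, with control 2 and 5, control 1, and control 3, 4 and 6. Such a run is a group of numbers only, and whether it matches a sequencing batch was not tested. Pearson r of log2(FPKM + 1) over the 10812 genes lay between 0.979 and 0.988 for the 15 pairs of libraries, from 0.980 to 0.985 for the 4 pairs within a run and from 0.979 to 0.988 for the 11 others (across genes, which are not independent replicates). No library stood apart in these values.

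Genes of the mitochondrial chromosome made up 50.2 ± 1.28% of the summed FPKM (SD, n = 6), from 48.6% in control 6 to 52.1% in control 1. This chromosome encodes 13 subunits of the respiratory chain and of ATP synthase, with 2 ribosomal RNAs. The 13 mRNAs alone took 47.9 ± 1.1%, and the 2 rRNAs 2.26 ± 0.219%. As a share of the recovered reads, where length counts, the mitochondrial genes took 32 ± 1.71%. The libraries kept close to each other on each of these scales.

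A further 18.5 ± 0.759% of the FPKM (SD, n = 6) lay on 7 unprocessed pseudogenes, which sit side by side on chromosome 1 between 24611535 and 24616197 (GRCm38). They are nuclear copies of mitochondrial genes. Aligned to their mitochondrial counterparts, 6 of the 7 had no differing base, and over all 7 only 1 of 4149 aligned bases differed, T3C in mt-Nd3 (positions from the first base of the mitochondrial transcript). That base is in capitals in the first 60 bases of the mt-Nd3 transcript and of its copy Gm28438, and the first 60 bases of mt-Atp6 and of its copy Gm10925 are identical. The stretches are shown because, apart from that base, reads from either member of such a pair carry the same letters:
mt-Nd3: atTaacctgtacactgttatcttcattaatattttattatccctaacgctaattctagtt
Gm28438: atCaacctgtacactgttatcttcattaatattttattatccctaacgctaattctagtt
mt-Atp6: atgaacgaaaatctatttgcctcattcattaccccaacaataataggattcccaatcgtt
Gm10925: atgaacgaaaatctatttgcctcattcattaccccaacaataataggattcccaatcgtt

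Apart from the 1 differing base in mt-Nd3, reads of the copies and of the mitochondrial genes cannot be told apart over the aligned bases. Gm28437 had 23592 ± 2009 FPKM beside 25517 ± 2216 FPKM for mt-Co3 (cytochrome oxidase subunit 3), so that the copy held 48% ± 0.451 of the pair (SD, n = 6). Gm28661 held 48% ± 0.52 of its pair with mt-Co2, and Gm28438 held 48.1% ± 0.642 of its pair with mt-Nd3. The pair of mt-Atp6 (ATP synthase subunit 6) was split otherwise: Gm10925 had 23532 ± 2531 FPKM and mt-Atp6 3499.8 ± 254 FPKM, a share of 87% ± 0.59 for the copy. In the annotation mt-Atp6 overlaps its neighbour mt-Atp8 by 43 bases, and the part of this overlap in the split was not tested.

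On its own, mt-Co1 (cytochrome oxidase subunit 1) was the most abundant gene, at 73496 ± 4257 FPKM and between 67503 and 80258 FPKM. It was followed by mt-Cytb (cytochrome b of complex III, 33418 ± 840.1 FPKM) and mt-Nd1 (a subunit of complex I, 28055 ± 3207 FPKM). With the reads of each copy added to its mitochondrial gene and divided by the length of that gene, mt-Co1 stood at 78888 ± 4536 FPKM, mt-Co3 at 49079.6 ± 4199, mt-Co2 at 48181 ± 4236 and mt-Atp6 at 26928 ± 2751 FPKM (SD, n = 6). The order of mt-Co3 and mt-Cytb thus depends on whether the copies count. The lowest mitochondrial mRNA without copies was mt-Atp6, and with them mt-Nd3 (9199.7 ± 1465 FPKM).

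The complex I subunit genes other than mt-Nd1 ran from 21011 ± 661 FPKM for mt-Nd4 through 18762 ± 1659.8 for mt-Nd2, 14326 ± 682 for mt-Nd5, 11927 ± 971 for mt-Nd4l and 11146 ± 1005 for mt-Nd6 to 4789 ± 745 FPKM for mt-Nd3 (SD, n = 6). mt-Atp8, the short second ATP synthase subunit gene, had 21007 ± 2455 FPKM. Of the rRNAs, mt-Rnr2 had 8886 ± 1003 and mt-Rnr1 4915 ± 814 FPKM, both highest in control 1 and lowest in control 6. mt-Cytb varied least of the 15 genes (SD 0.036 of log2(FPKM + 1)) and mt-Rnr1 most (SD 0.24).

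**Figure D1:**
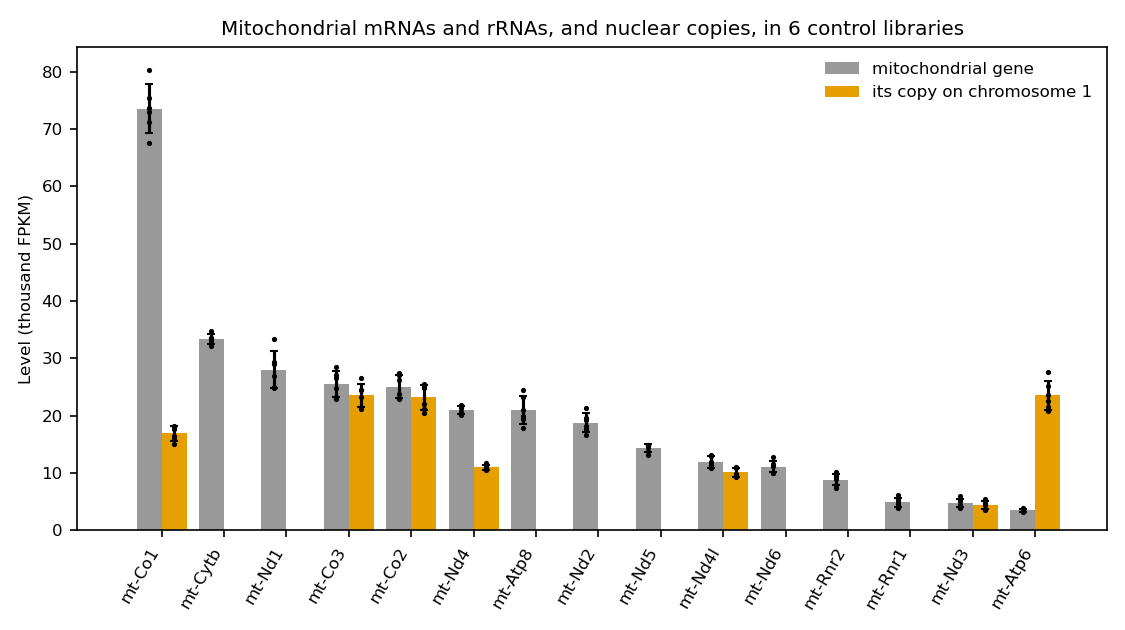
Level (1000 FPKM) of the 13 mitochondrial mRNAs and 2 rRNAs (grey bars) and of their 7 copies on chromosome 1 (orange bars) in the 6 control libraries; bars are means, error bars SD and dots single libraries. mt-Co1 is the highest bar, and for mt-Atp6 alone the copy (23532 FPKM) exceeds the mitochondrial gene (3499.8 FPKM).

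Among nuclear genes other than these copies, the proteins of contraction, oxygen supply and fuel handling led. Actc1 ranked first at 4703 ± 306 FPKM, myoglobin (Mb, the oxygen store of muscle, ENSMUSG00000018893, chromosome 15, 77015487 to 77050670) followed at 4427 ± 474, Myh6 at 3050.2 ± 386 and Fabp3, the heart fatty acid binding protein (ENSMUSG00000028773, chromosome 4, 130308595 to 130315463), at 2835 ± 214 FPKM (SD, n = 6). Mb lay between 3601 and 5044 FPKM and was lowest in control 4, which was lowest in Myh6 too. Actc1 and Mb overlapped across libraries, as did Myh6 and Fabp3, whereas every Mb value lay above every Myh6 value. The next 4 genes were Atp2a2 (the SERCA calcium pump, 1860.4 ± 156), Myl3 (essential light chain, 1795 ± 157), Myl2 (ventricular regulatory light chain, 1696 ± 156) and Slc25a4 (the mitochondrial ADP/ATP carrier, 1647 ± 71.4 FPKM), whose values overlapped with their neighbours in this order.

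Hemoglobin genes of red blood cells came next in the ranking by mean, but not in every library. Hbb-bs had 1069, 641, 2225, 701, 588 and 3750.3 FPKM in control 1 to 6, and Hba-a1 had 973, 589, 1939.7, 558, 571 and 3586 FPKM. Control 6 and control 3 were above the other 4 libraries in both. The globin genes are near copies of each other (Hba-a1 shares 72.3% of its stretches of 50 bases with other genes), so that their single values are uncertain. Below them ranked Tnnc1 (troponin C, 1267 ± 133), Cox6a2 (a muscle subunit of cytochrome oxidase, 1182 ± 149), Tnni3 (troponin I, 1147 ± 96.6), Ckmt2 (mitochondrial creatine kinase, 1127 ± 66.3), Tcap (telethonin of the Z-disc, 1037 ± 239), Atp5a1 (ATP synthase alpha, 1027 ± 48.7) and Tpm1 (tropomyosin, 881 ± 68 FPKM). Tcap was at 1508 FPKM in control 5 and between 873 and 1063 FPKM in the other 5 libraries. The 10 most abundant nuclear genes took 13 ± 1.3% and the top 100 took 35 ± 1.4% of the nuclear FPKM (SD, n = 6), while the 10 most abundant genes of all, which are mitochondrial genes and copies, took 48.9 ± 1.7% of the whole.

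**Figure D2:**
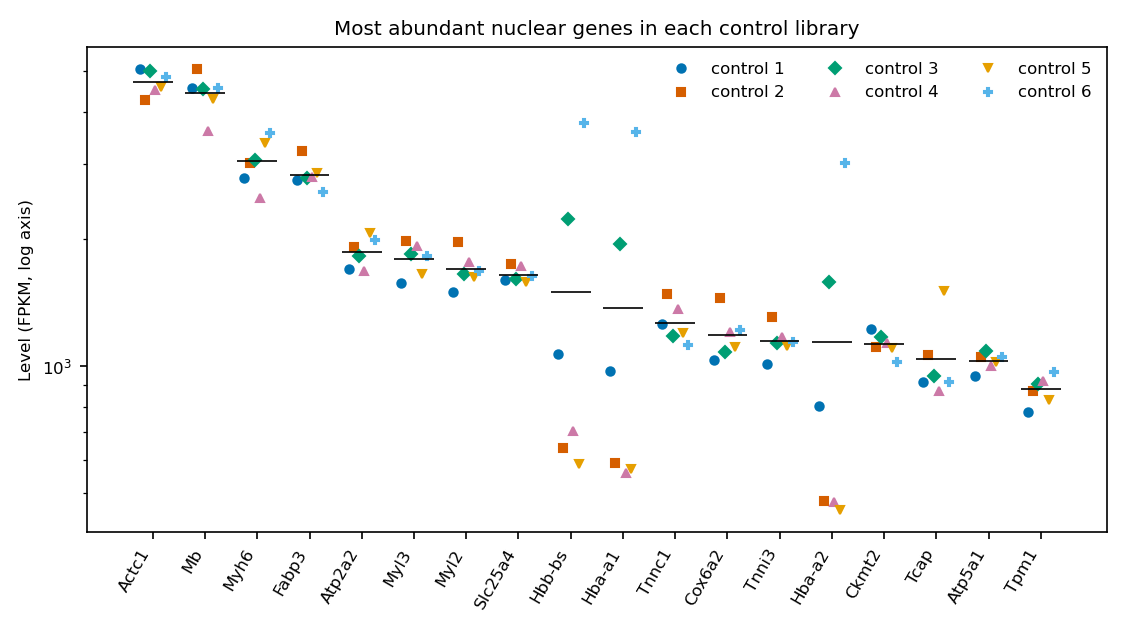
Level (FPKM, log axis) of the nuclear genes among the 40 most abundant genes, copies of mitochondrial genes left out; each symbol is a control library and each line the mean of 6. Most genes stay close to their mean, while the globins are highest in control 6 and control 3 and Tcap is highest in control 5.

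The choice within gene families was read in 74 families, for each of which 1 member was listed as the main one from general knowledge. In most families this was the form known from adult heart or striated muscle, and in the 2 translation families it was the common form. Families and members were chosen with earlier results of these data known, so the counts are no independent check of the choice. The listed member's log2(FPKM + 1) was set against the highest other member in the same library. The mean difference was tested by an exact two-sided sign-flip permutation test over the 6 libraries. The listed member was above all others in 58 of the 74 families (78.4%) and below another in 10 (13.5%), and 6 were not called. Each called family had the same order in all 6 libraries and an exact sign-flip p = 0.03125, the smallest that the 64 sign patterns can give (Benjamini-Hochberg adjusted p = 0.034 over the 74). The same gene was highest in all 6 libraries in 68 families, and in 27 families it held at least 95% of the summed FPKM. The counts that follow are for the listed member higher, lower and not called.

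All 13 families of the contractile apparatus were called for the listed member. Myh6 held 98.1% ± 0.329 of the FPKM of 8 sarcomeric myosin heavy chains (SD, n = 6) with a log2 difference of 5.88, SE 0.10, although 20.2% of its stretches of 50 bases also occur in other genes, chiefly Myh7. Myh7, the beta chain of the fetal and slow muscle fibre, lay between 37.6 and 64.8 FPKM with a median of 50.7 FPKM, highest in control 2 and lowest in control 1. Myl2, Tnni3 and Tnnc1 each held at least 99.9% of their families in every library, Myl3 99.5% ± 0.168, Tnnt2 99.3% ± 0.0826 and Mybpc3 (cardiac myosin-binding protein C) 99.5% ± 0.131. Actn2, the alpha-actinin of the Z-disc, held 95.4% ± 0.598, and Fhl2, a LIM protein of the sarcomere, 97.3% ± 0.464. Of the skeletal muscle members, Myl1 was at 7.76 ± 2.6, Tnnt1 at 4.19 ± 0.482 and Mybpc2 at 3.57 ± 0.895 FPKM.

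Actins and tropomyosins were less exclusive. Actc1 held 92.5% ± 1.81 of the actins, and Acta1, the skeletal alpha actin that is also made in the fetal heart, had 410.4, 110.4, 193, 131, 112 and 115 FPKM in control 1 to 6. Control 1 was above the other 5 libraries, which lay between 110.4 and 193 FPKM. Tpm1 held 93.6% ± 1.01 of the tropomyosins with Tpm4 at 46.9 ± 7.9 FPKM. Flnc, the muscle filamin, held 60.7% ± 2.49 of the filamins (log2 difference 1.06, SE 0.058), with Flna at 13.7 ± 1.3 FPKM. Ankrd1, a stretch-responsive ankyrin repeat protein of the sarcomere, lay between 414 and 857 FPKM with a median of 694 FPKM, with control 6 the lowest and control 2 the highest. It held 84.7% ± 2.68 of its family, next to Ankrd23 at 117 ± 15.8 FPKM, a gene that shares 75% of its stretches of 50 bases with the predicted gene Gm42417.

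In the calcium cycle 5 families were higher and 1 lower. Atp2a2 held 99.8% ± 0.0229 of the SERCA pumps, Ryr2 (the release channel) 99.7% ± 0.0685 of the ryanodine receptors, Casq2 (the calcium buffer calsequestrin) 98.6% ± 0.394 and Slc8a1 (the sodium-calcium exchanger) 99.4% ± 0.164. Pln, phospholamban, which restrains SERCA, had 368 ± 24.3 FPKM and held 99.9% ± 0.045 of 3 measured SERCA micropeptides. Slc8a1 had 36 ± 7.63, Ryr2 41.8 ± 6.77 and Casq2 196 ± 14.6 FPKM (SD, n = 6). For calmodulin kinase II the order went the other way: Camk2g had 5.58 ± 1.53 FPKM and Camk2d, the listed cardiac member, 3.63 ± 1.05 (log2 difference -0.50, SE 0.16).

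Of the channel and pump families 7 were higher and 2 not called, and several were shared between members. Cacna1c, the L-type calcium channel pore, held 81.5% ± 3.47 of its family next to Cacna1s (2.28 ± 0.713 FPKM). Kcnd2, the pore of the transient outward current, held 89.6% ± 7.1, with 75.3% in control 1, where Kcnd3 reached 1.39 FPKM against 0.21 to 0.452 elsewhere. Hcn2 led the pacemaker channels with 78.7% ± 3.54. Kcnj11, the pore of the ATP-sensitive channel of muscle, held 67.8% ± 2.49 next to Kcnj8 of pericytes and smooth muscle. Gja1 (connexin 43) had 36.7 ± 3.56 FPKM and held 67.9% ± 2.03 of 6 connexins. Not called were the inward rectifiers Kcnj2 (7.5 ± 1.41 FPKM) and Kcnj12 (6.56 ± 0.917 FPKM), with a log2 difference of 0.16, SE 0.11 and an exact sign-flip adjusted p of 0.193. The T-type channels Cacna1h (1.17 ± 0.385 FPKM) and Cacna1g (1.43 ± 0.505 FPKM) were not called either (log2 difference -0.15, SE 0.087, exact sign-flip adjusted p = 0.163).

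Of the signalling families 7 were higher and 1 not called. Chrm2, the muscarinic receptor of the vagus, held 99.5% ± 0.179, and Adrb1, the main beta receptor of cardiac muscle, 79.3% ± 8.06 of the beta-adrenergic receptors, from 64.7% to 86.4%. Adra1b (6.8 ± 1.98 FPKM) exceeded Adra1a (1.78 ± 0.52), Adcy6 (25.5 ± 3.03) exceeded Adcy5 (11.6 ± 1.63), and Prkaa2, the muscle AMPK alpha subunit, held 81.2% ± 1.18. Nos3, the endothelial nitric oxide synthase, held 72.3% ± 3.44. Vegfb (72.2 ± 14.8 FPKM) was above Vegfa (35.9 ± 4.69 FPKM) with a log2 difference of 0.98, SE 0.12. The natriuretic peptides, hormones that the stretched heart releases, were not called. Nppa had 348, 89.8, 152, 262, 149 and 141 FPKM in control 1 to 6, and Nppb had 210.01, 146, 147, 307, 173 and 89.2 FPKM. Nppa was higher in 3 of 6 libraries (log2 difference 0.048, SE 0.23, exact sign-flip adjusted p = 0.875), and both were high in control 1 and control 4.

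In fuel and nucleotide metabolism 15 families were higher and 3 lower. Fabp3 held 97.3% ± 0.299 of the fatty acid binding proteins, Cpt1b (entry of fatty acids into mitochondria) 92.1% ± 1.75, Slc2a4 (the insulin-responsive glucose transporter) 95.3% ± 0.484, Eno3 95.7% ± 0.234, Pgam2 95.3% ± 0.62, Pfkm 92.9% ± 0.561 and Aldoa 99.4% ± 0.439, the latter 4 being steps of glycolysis. Ldhb, which favours lactate use, had 693 ± 39.1 FPKM and held 84.1% ± 1.35, against 130.3 ± 9.6 FPKM for Ldha. Cpt1b shares 78.6% of its stretches of 50 bases with the predicted gene Gm44502. Hk2 held 72.9% ± 3.7 of the hexokinases and Pygm, the muscle glycogen phosphorylase, 65.4% ± 1.19 with Pygb next (172 ± 13.3 FPKM). Gys2, the liver glycogen synthase, was listed at 0 in all 6 libraries beside Gys1 (17.7 ± 3.18 FPKM). Acsl1 held 89.7% ± 0.721 of the acyl-CoA synthetases, Adssl1 95.9% ± 0.647, Ampd3 85.3% ± 0.817 and Ak1 73.5% ± 1.26 of their nucleotide enzyme families. The 3 lower families were led by Ckmt2, Plin3 and Pdk2. Ckmt2 exceeded Ckm, the cytosolic muscle creatine kinase (627 ± 27.2 FPKM, log2 difference -0.84, SE 0.040). Plin3 (68.4 ± 5.98 FPKM) exceeded Plin5, the lipid droplet protein of oxidative tissue (44.2 ± 2.69 FPKM, log2 difference -0.62, SE 0.073). Pdk2 (121 ± 8.54 FPKM) exceeded Pdk4, the fasting-induced brake on pyruvate use, which varied from 27 FPKM in control 2 to 100.4 in control 5 (log2 difference -1.10, SE 0.26).

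For mitochondrial proteins encoded in the nucleus 6 families were higher, 3 lower and 1 not called. Cox6a2 held 95.1% ± 1.51 over Cox6a1, Cox8b 81.9% ± 8.0 over Cox8a, and Cox7a1 49.8% ± 2.93 among 3 members (log2 difference 0.73, SE 0.070). Cox4i1 and Cox6b1 held 98.8% ± 0.21 and 99.8% ± 0.0566 of theirs. Slc25a4 held 93% ± 0.623 of the ADP/ATP carriers. Ucp3, a mitochondrial carrier induced by fatty acids, had 16.3, 10.8, 21.1, 4.6, 28.5 and 12.4 FPKM in control 1 to 6 and was above Ucp2 in 5 of 6 libraries, the exception being control 4 (log2 difference 1.31, SE 0.36, exact sign-flip adjusted p = 0.067). Atp5g3 (371 ± 21.7 FPKM) exceeded Atp5g1 (156 ± 9.41), Sod1 (194 ± 15.9) exceeded the mitochondrial Sod2 (112 ± 8.11), and Gpx4 (182 ± 22) exceeded Gpx3 (66.7 ± 10.7 FPKM, SD, n = 6).

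Of the transcription factor families 4 were higher, 1 lower and 2 not called. Esrra, a regulator of oxidative genes, had 47.4 ± 2.8 FPKM and held 80.5% ± 0.962 of the estrogen-related receptors, and its coactivator Ppargc1a held 72% ± 3.17. Gata4 (19.2 ± 1.66 FPKM) was above Gata6 (13.4 ± 1.94) and Hand2 held 99.9% ± 0.166 over Hand1. Mef2d (20.01 ± 2.02 FPKM) exceeded Mef2a (10.9 ± 1.36), the listed member (log2 difference -0.82, SE 0.052). Ppara (6.09 ± 1.26) and Ppard (5.15 ± 0.734 FPKM) were not called (exact sign-flip adjusted p = 0.0991). Tead1 had 1.06, 1.82, 1.55, 11.9, 1.75 and 2.58 FPKM in control 1 to 6, so that control 4 was far above the other 5, and its difference from Tead3 was not called (exact sign-flip adjusted p = 0.824). Both translation families were lower: the muscle forms Eef1a2 (478 ± 23.7 FPKM) and Rpl3l (102 ± 10.2) exceeded the common forms Eef1a1 (229.7 ± 22.6) and Rpl3 (38.3 ± 3.11 FPKM), with log2 differences of -1.06, SE 0.075 and -1.39, SE 0.081 for the common forms. Eef1a1 and Rpl3 share 39.4% and 35% of their stretches of 50 bases with other genes, and their levels are uncertain to that extent.

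The order within several families changed when recovered reads were compared without division by the merged exon length of the annotation. Camk2d, whose merged exons span 22493 bases against 6401 for Camk2g, was then higher (log2 difference 1.19), as were Ckm (0.13), Sod2 (0.53) and Mef2a (0.42). Vegfb (-0.42), Cox7a1 (-0.17), Gata4 (-0.21) and Atp5g1 (-0.084) lost their calls, with exact sign-flip adjusted p of 0.067, 0.067, 0.0991 and 0.161. Kcnj2 (1.17) and Tead1 (1.28) were then called higher, and Ppara (-0.74) lower than Ppard. For these families the call rests on the lengths used for FPKM, and which isoforms were expressed is not in the files.

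**Figure D3:**
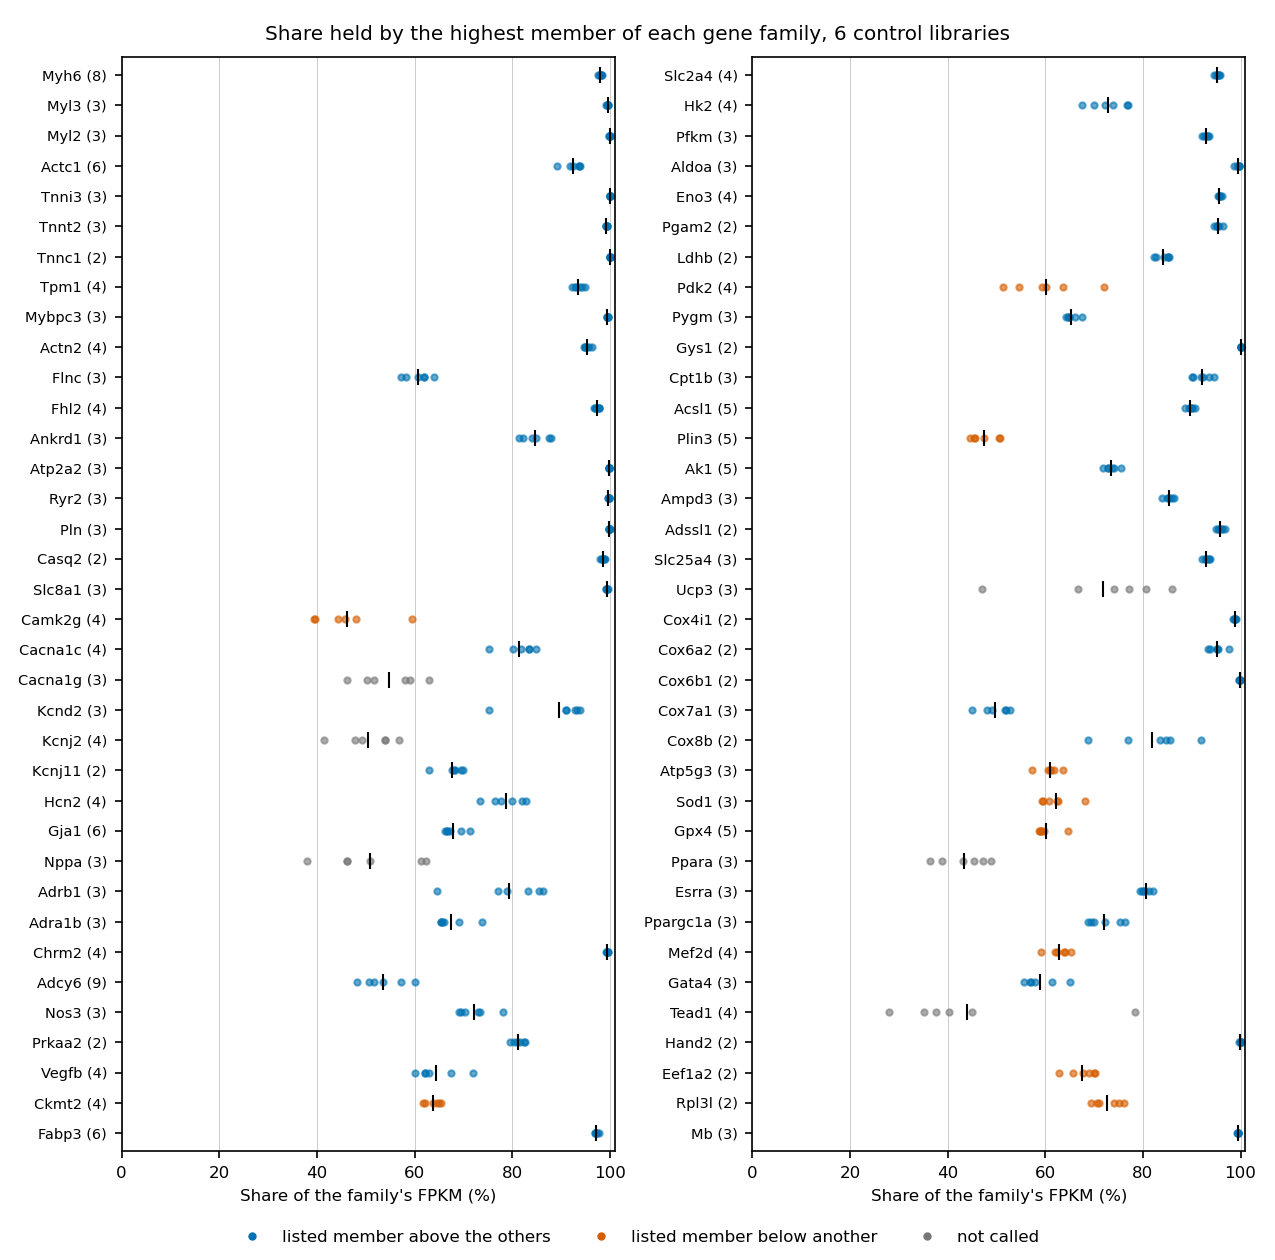
Share of a family's summed FPKM (percent) held by its highest member in 72 of the 74 gene families; dots are the 6 control libraries, the tick is the mean, colours mark the listed member above all others (blue), below another (orange) or not called (grey), and the number of measured members is in brackets. The highest member held at least 95% in 9 of 13 contraction families and 5 of 6 calcium families, while Nppa (38% to 62.4%), Ucp3 (47.1% to 86%) and Tead1 (27.9% to 78.4%) spread widely between libraries.

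Promoter letters were looked up for the main and minor member of the myosin and actin families. The 80 bases from 60 before to 20 after the RefSeq start (GRCm38.p6) are shown on the gene's strand, with the motif TATAAA in capitals where it occurs:
Myh6, chr14:54966588-54966667, minus strand: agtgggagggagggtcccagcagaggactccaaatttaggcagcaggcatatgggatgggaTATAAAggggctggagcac
Myh7, chr14:54994530-54994609, minus strand: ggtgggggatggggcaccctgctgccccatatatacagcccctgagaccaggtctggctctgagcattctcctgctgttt
Actc1, chr2:114052856-114052935, minus strand: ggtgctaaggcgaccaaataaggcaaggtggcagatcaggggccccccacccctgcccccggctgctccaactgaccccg
Acta1, chr8:123894756-123894835, minus strand: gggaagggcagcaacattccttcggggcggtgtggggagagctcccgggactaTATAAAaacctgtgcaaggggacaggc
TATAAA stood in the stretch of Myh6 and in that of Acta1, and not in these letters of Myh7 and Actc1, that is, in the abundant myosin and in the scarcer actin. Myh7 has another RefSeq start, whose stretch (chr14:54994607-54994686) is not printed and holds no TATAAA either. Counted from the RefSeq start, its first letter lay at 1 in Myh6, behind the start, and at -7 in Acta1, before it. Over the 300-base window (250 before to 50 after the start, both strands) TATAAA occurred in 6 of 39 promoters of the 40 most abundant nuclear protein-coding genes (15.4%). These promoters covered 31 of the genes. It occurred in 7.13% of 9979 promoters of genes at 1 FPKM or more, and in 13.6% of all 32851 promoters. Between 40 and 20 bases before the start it stood in 1 of the 39 (2.56%), and in 1.19% and 1.99% of the other sets. A match is a description of the sequence only.

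Markers of other cell types gave a description of the tissue beyond muscle. The 12 fibroblast markers were all at 1 FPKM or more and summed to 516 ± 51.8 FPKM (SD, n = 6), led by Gsn (315 ± 26), the collagen-binding proteoglycan Dcn (62.8 ± 7.62) and Dpt (34.5 ± 3.97 FPKM). The 12 endothelial markers summed to 260.4 ± 30.8 FPKM, led by Fabp4 (71.6 ± 6.44), Cdh5 (47.7 ± 8.23) and the VEGF receptor Kdr (22.1 ± 4.31 FPKM). Kdr lay between 15.9 and 29 FPKM with a median of 22.1 FPKM, with control 3 highest and control 2 lowest. Pericyte markers summed to 223 ± 17.4 FPKM (Rgs5 137 ± 10.6 FPKM), smooth muscle markers to 107 ± 15.8 FPKM (Acta2 53.3 ± 11.4 FPKM) and macrophage markers to 198 ± 26.6 FPKM (Lyz2 91.6 ± 12.1 and C1qa 34.9 ± 5.9 FPKM). In the sums of the cardiomyocyte list the highest library exceeded the lowest 1.11 times, in fibroblast 1.31 times, in endothelial 1.43 times and in macrophage markers 1.38 times. Most of the fibroblast sum is Gsn, and whether only the named cell type made each marker was not tested.

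The lymphatic list was led by the transcription factor Prox1 (9.7 ± 1.37), the chemokine Ccl21a (9.28 ± 3.14, 2 gene models, the higher taken) and Lyve1 (5.82 ± 1.73 FPKM), although Prox1 and Lyve1 are also made by other cells. Endocardial markers summed to 6.6 to 10.8 FPKM, with Npr3 at 2.53 ± 0.61 FPKM. Of the conduction system list, the pacemaker channel Hcn4 had 1.62 ± 0.43 FPKM and the contactin Cntn2 0.863 ± 0.589 FPKM, both highest in control 6 (2.48 and 2.0 FPKM), while the transcription factors Tbx3 (1.89 FPKM in control 5) and Shox2 (0.214 FPKM in control 2) were highest elsewhere. No T cell, B cell, NK cell, neuron, mesothelial, adipocyte or thymocyte marker reached a mean of 1 FPKM. Schwann cell genes summed to 2.01 to 4.52 FPKM (Cdh19 1.15 ± 0.258), mast cell genes to 2.93 to 5.06 FPKM (Mcpt4 1.03 ± 0.338), liver genes to 2.4 to 4.1 FPKM (Alb 1.34 ± 0.26) and cartilage genes to 0.372 to 1.62 FPKM (Comp 1.01 ± 0.458 FPKM). The lung epithelium list summed to at most 0.18 FPKM, the skeletal muscle list to 0.93 to 2.26 FPKM and the thymocyte list to at most 0.0237 FPKM. Of the brown adipocyte list only Cidea reached a mean of 1 FPKM (15.6 ± 1.56 FPKM), with Ucp1 at most 0.0321 FPKM.

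Blood markers differed more between libraries than the cardiomyocyte list and the list of the sarcomere and Z-disc. The 6 erythroid genes summed to 3414, 2011, 6842, 2045, 1915 and 12231 FPKM in control 1 to 6, and Alas2, the heme synthesis enzyme of red cells, followed the globins (11.9, 6.74, 22.8, 5.45, 6.93 and 42.4 FPKM). Neutrophil markers were highest in the same libraries, with S100a9 at 11.5 FPKM in control 3 and 6.94 in control 6 and between 0 and 1.84 FPKM in the other 4. The platelet genes shared that order in part: they summed to 16.4, 47.5, 30.7, 18.9, 12.5 and 32.8 FPKM in control 1 to 6. Control 2 was highest, followed by control 6 and control 3. Of these genes, Ppbp was 20.2 FPKM in control 2, 11.2 in control 6 and 0.721 in control 1. Plasma cell genes were highest in control 4, where Igkc reached 13.2 FPKM against 1.52 to 6.91 FPKM elsewhere. Cd74, the invariant chain of antigen-presenting cells, led the MHC class II genes (60.3 ± 9.6 FPKM), which summed to 135 ± 24.7 FPKM. The amount of blood in each sample is not in the labels, and its part in other differences was not tested.

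**Figure D4:**
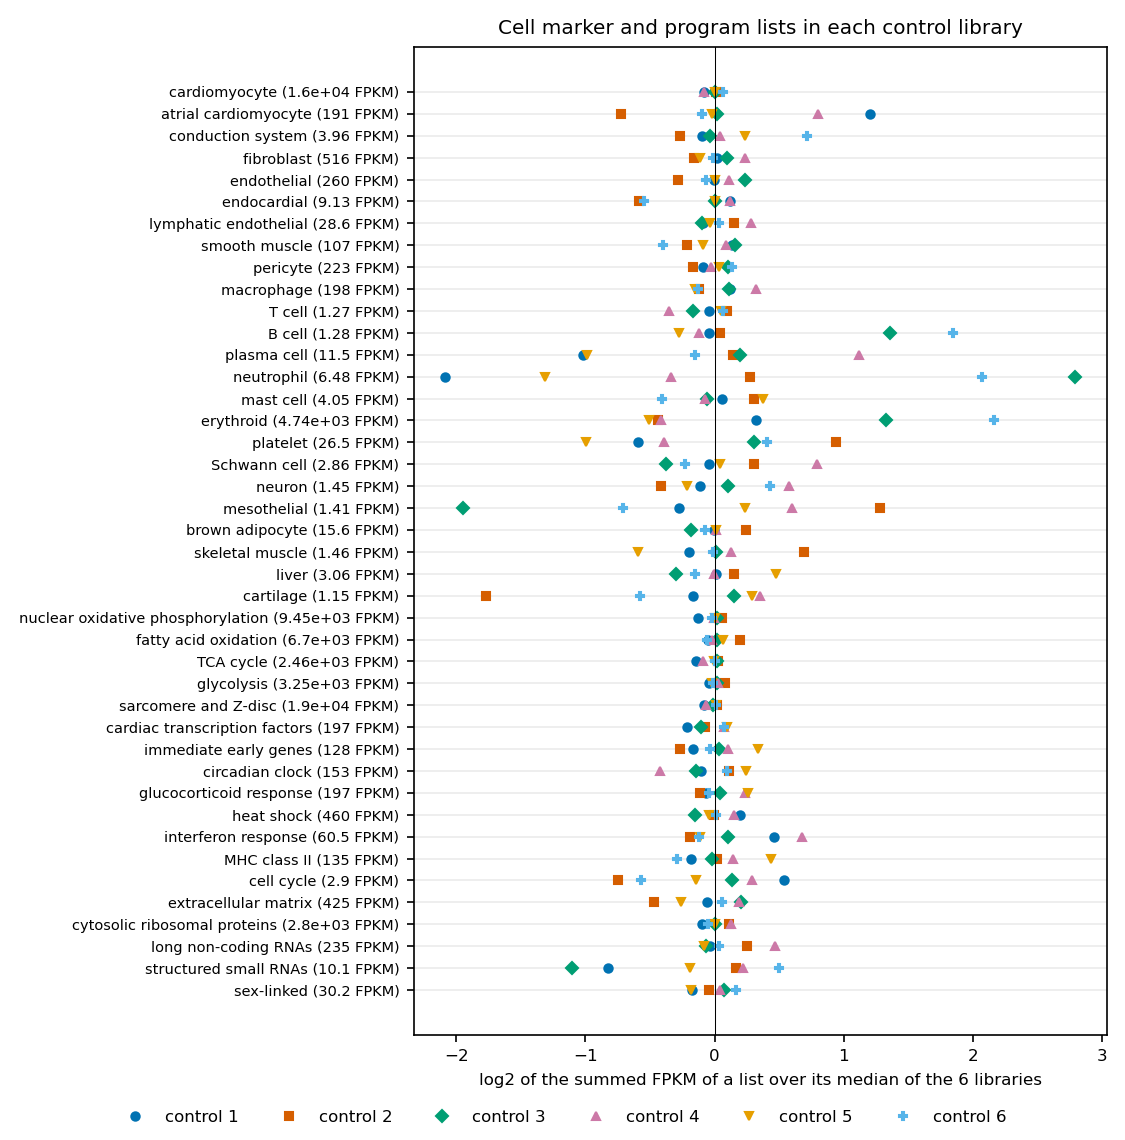
Summed FPKM of each marker or program list in each control library, as log2 over the median of the 6 libraries, with the mean sum in brackets, for the lists whose mean sum reached 1 FPKM. The cardiomyocyte, sarcomere and energy lists stay near 0, while the atrial cardiomyocyte list spreads more (91.5 to 348 FPKM). Erythroid and neutrophil lists are high in control 6 and control 3.

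The 24 genes of the sarcomere and Z-disc summed to 19003 ± 576 FPKM and the 38 nuclear genes of oxidative phosphorylation to 9446 ± 395 FPKM (SD, n = 6), led by Atp5a1, Atp5b (755 ± 89 FPKM) and Cox4i1 (702 ± 38.6 FPKM). Fatty acid oxidation (21 genes) summed to 6696 ± 460.1 FPKM, glycolysis (13 genes) to 3251 ± 97.5 FPKM and the TCA cycle (13 genes) to 2459.6 ± 117 FPKM. Behind Fabp3, the thiolase Acaa2 had 480.2 ± 47.2 and lipoprotein lipase, Lpl, 424 ± 54.4 FPKM. Gapdh, a glycolytic gene with many processed pseudogenes in the mouse genome, stood at 7.43 ± 3.22 FPKM, and how reads were divided among such copies is not in the files. Within the TCA cycle Ogdh had 317 ± 23.5 and Sdha 303 ± 26 FPKM. The sums of these 5 lists had an SD of 3.0% to 6.87% of their mean.

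The longest gene of the sarcomere list, titin (Ttn), had 29.3 ± 9.0 FPKM, desmin (Des) 335 ± 53.8, the small heat shock protein Cryab 339.5 ± 58.3 and myomesin 1 (Myom1) 221 ± 13 FPKM (SD, n = 6). The skeletal muscle gene nebulin (Neb) was at 0.26 ± 0.0833 FPKM. Of 17 cardiac transcription factors, 16 reached 1 FPKM, with Nkx2-5 at 9.02 ± 4.31, Srf at 17.6 ± 1.2, Tbx20 at 7.08 ± 0.687 and Tbx5 at 4.91 ± 0.511 FPKM. The 28 cytosolic ribosomal protein genes summed to 2799 ± 174 FPKM, from 19.7 ± 1.36 for Rps20 to 319 ± 13.6 FPKM for Rplp0, and many of them have near-identical copies, so that their order is uncertain. The 18 matrix genes summed to 425 ± 74.4 FPKM and were led by Sparc (79.4 ± 19.3), Dcn and the basement membrane collagen Col4a1 (57.1 ± 17.1 FPKM), while the fibrillar collagen Col1a1 had 13.5 ± 2.6 FPKM and periostin (Postn), made by activated fibroblasts, 3.14 ± 0.618 FPKM.

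Programs that answer to time of day, hormones and handling were read next. Among clock genes, the repressor Nr1d1 had 39.6, 42.6, 47.4, 26.7, 50.1 and 44.9 FPKM in control 1 to 6 and Dbp 18.3, 24.9, 17.8, 12.6, 35.8 and 18.5 FPKM. Dbp was lowest in control 4 and highest in control 5, and the order was the same for Nr1d1 at both ends. The 9 glucocorticoid-responsive genes summed to 180.4, 175, 195, 223, 227 and 184 FPKM in control 1 to 6. Of these, Tsc22d3 was at 30.5 FPKM in control 4 and between 12 and 20.7 FPKM elsewhere, Cdkn1a at 18.4 against 3.21 to 5.29, and Fkbp5 at 5.43 against 1.5 to 1.77 FPKM. These 3 were picked after their values were seen, and not every member of the list followed them. Pdk4 was at 42 FPKM in control 4, below its median of 56.1 FPKM, and highest in control 5 (100.4 FPKM). Among 18 immediate early genes, Fos had 1.34 ± 0.716 and Egr1 3.6 ± 2.6 FPKM, and Jund was at 24.4 FPKM in control 5 with a median of 6.87 FPKM. The constitutive chaperone Hspa8 had 181 ± 34.3 FPKM. The heat shock gene Hspa1b was highest in control 1 (4.56 FPKM, others 0.469 to 2.19), and the interferon-induced Ifit3 was highest in control 4 (10.3) and control 1 (10.05 FPKM). Collection times were not given, and their part in these values was not tested. Cell cycle genes were all below 1 FPKM on average (Mki67 0.364 ± 0.168 FPKM). Among RNAs that code for no protein, Malat1 had 205 ± 33 and Neat1 22.8 ± 5.73 FPKM.

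Over the 10812 genes whose mean reached 1 FPKM, the median SD of log2(FPKM + 1) between libraries was 0.13, and an SD of 0.5 was exceeded by 264 genes. In bands of rising level the median of nuclear genes went from 0.14 at 1 to 3 FPKM through 0.12 at 10 to 30 to 0.11 at 100 to 1000 FPKM. The 17 nuclear genes above 1000 FPKM, 3 of them globins, had a median of 0.13. Counting error on the recovered reads alone would give 0.036, 0.021 and 0.0083 in the same 3 bands, all below the measured spread. The median SD was 0.11 in control 3, 4 and 6 alone, which share a run of library numbers. An SD over 3 libraries tends to come out smaller than an SD over 6, so this value does not show closer agreement within the run.

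**Figure D5:**
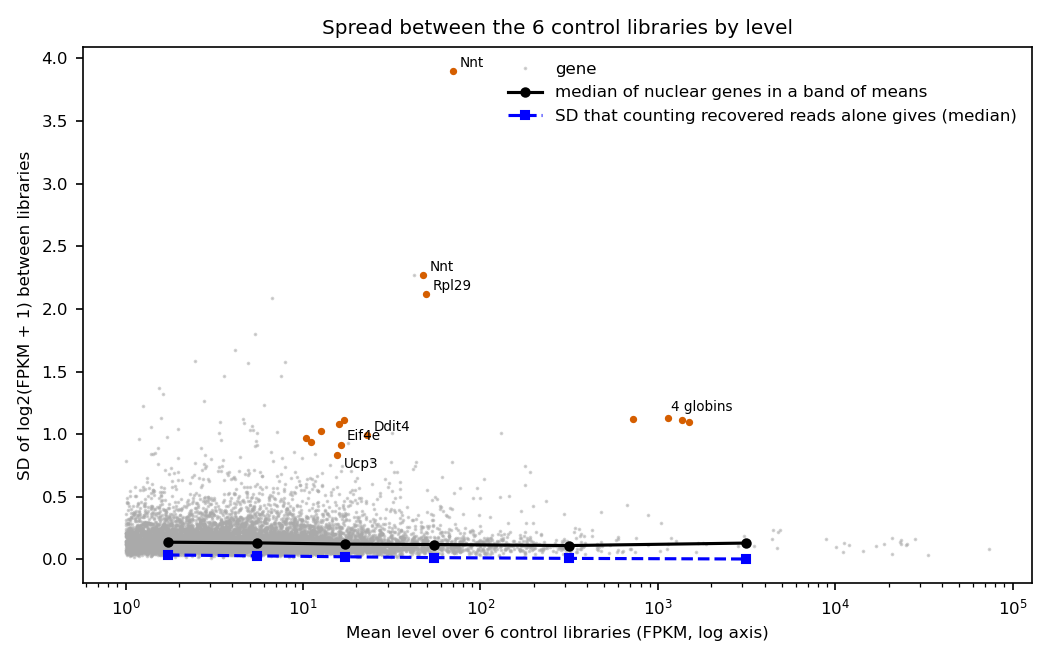
SD of log2(FPKM + 1) between the 6 control libraries against the mean level (FPKM, log axis); grey dots are genes, the black line the median in bands of level, the blue line the SD from counting alone, and orange dots the 15 most variable genes at 10 FPKM or more, predicted gene names left out. The black line stays near 0.13 over the whole range, above the counting line.

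Among the 2776 genes whose mean reached 10 FPKM, the most variable by the rule for named genes, which leaves out predicted gene names (Gm with digits, or ending in Rik), was Nnt, the mitochondrial transhydrogenase that makes NADPH, and it occurs as a pair of overlapping models on chromosome 13. The model ENSMUSG00000116207 (119335528 to 119408952) had 100.8, 134 and 186 FPKM in control 1, 2 and 3 and was listed at 0 in control 4, 5 and 6. The model ENSMUSG00000025453 (119335448 to 119408997) had 3.34, 4.17 and 5.35 FPKM in the first 3 and 73.2, 106 and 92.4 FPKM in the last 3. All 3339 exon bases of the first model lie within the 7037 of the second. The recovered reads of both models together were 27660, 36213, 53291, 40354, 58366 and 49929 in control 1 to 6. Of these, the first model held 93.5% to 94.3% in control 1, 2 and 3 and none in control 4, 5 and 6. The libraries in which each model leads do not follow the runs of library numbers, since control 3, 4 and 6 share a run. They do follow the order of the titles. The runs rest on a cutoff chosen here, and the cause of the split between the models was not tested.

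Sept2, a septin of the cytoskeleton, also has a pair of models. Its first model was at 2.06 FPKM in control 5 (1288 reads) while the other held 7381 reads there, and both together were 7803 to 10367 reads over the 6 libraries. Without control 5 the SD of the first model was 0.36 in place of 0.94. Of the 15 most variable genes by that rule, 5 are globins or Alas2 (SD 1.09 to 1.13 for the globins), described above. The others were Rpl29, a ribosomal protein (2.66 and 4.07 FPKM in control 3 and 4, 64.9 to 81.2 in the other 4), Sumo2, Sbk1, Ddit4, Nek7, the cap-binding factor Eif4e and Ucp3. Ddit4, an inhibitor of mTOR signalling induced by stress and glucocorticoids, had 54 FPKM in control 4 and 37.2 in control 6, against 10.1 to 13.4 in the other 4. Control 4 alone carried much of the spread of Sumo2 and Ucp3 (SD 0.57 and 0.54 without it, 1.11 and 0.83 with it), and control 2 that of Sbk1 (SD 0.11 without it, 1.03 with it).

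A pattern of 2 levels recurred among such genes. By a rule set after the values were seen (a gap of at least 1 on the log2 scale, with a range of at most 0.5 on either side), 19 of the 2776 genes at 10 FPKM or more (0.684%) fell on 2 levels. Eif4e was at 5.94 and 5.33 FPKM in control 1 and 5 and at 20.2 to 22.4 in the other 4. Nek7, a mitotic kinase that also acts in the inflammasome, was at 2.97 and 3.25 FPKM in control 2 and 3 and at 13.3 to 14.9 in the others. Creg1 was at 13.9 and 13.6 FPKM in control 1 and 6 against 36.4 to 48.8, and Ctdsp2 at 6.07 and 6.04 in control 3 and 5 against 17.3 to 19. Bdh1, a ketone body enzyme, was at 10.2 and 9.95 FPKM in control 3 and 6 against 23.8 to 27.1, and Sar1a was at 11.1 in control 2 alone against 34.6 to 41.9. A single library stood apart in 11 of the 19, a pair in 7 and 3 libraries in 1, and different libraries did so for different genes. Models that overlap another listed gene made up 9 of the 19 (47.4%), beside 44.8% of all genes at 10 FPKM or more. Whether these levels stem from the tissue or from how reads were assigned to genes and transcripts was not tested.

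At the other end, 15 genes had an SD of 0.016 to 0.033. Bccip, a cofactor of BRCA2, had 20.4, 21, 21, 20.9, 20.6 and 20.7 FPKM in control 1 to 6. Abcf1 (19.9 to 20.4 FPKM), the proteasome subunit Psmd7 (33.1 to 34.4 FPKM), Msrb2 (31 to 32.3 FPKM) and Rpl23a (172 to 178 FPKM) followed. The list also holds the mitochondrial chaperonin Hspd1 (128 ± 2.68 FPKM), the lysosomal enzyme Ppt1 (12 ± 0.293), the glyoxalase Glo1 (40.04 ± 0.709) and Pfkl (16.6 ± 0.391 FPKM). These values belong to the FPKM scale as deposited. The SD of the same 15 genes ran from 0.023 to 0.065 after scaling to the sum without mitochondrial genes and copies, and from 0.033 to 0.075 after median-ratio scaling.

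The mitochondrial share was set against the mean log2 level of 6 lists over the 6 libraries, with the lists scaled to the sum without mitochondrial genes and copies. This share is that of the mitochondrial chromosome without the nuclear copies. The share with the copies was not set against the lists. Of the 6 relations 0 passed by the exact permutation test of Pearson r over 720 pairings (adjusted p from 0.652 to 0.943), and 0 had an unadjusted p below 0.05 by Pearson r or by Spearman rho. For nuclear oxidative phosphorylation genes r was 0.40 and rho 0.43 (exact permutation p = 0.435 and 0.419, n = 6). For erythroid genes r was -0.55 and rho -0.43 (exact permutation p = 0.261 and 0.419, n = 6). Without control 1 and control 6, the libraries farthest from the median share, r over the remaining 4 was 0.998 for oxidative phosphorylation and -0.67 for erythroid genes. For endothelial genes it was -0.91 there, against -0.042 over all 6. With 1 library left out, r for oxidative phosphorylation ran from -0.10 (without control 6) to 0.96 (without control 1), so that its sign depended on the libraries kept. A p that misses the threshold with 6 libraries does not show that the levels are unrelated, and runs of at most 3 libraries gave no value of their own.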

How the data were processed

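The 6 control libraries were made from mouse heart RNA after removal of ribosomal RNA, per the labels' protocols. The authors deposited 1 value per Ensembl gene and library. Its unit, taken here as FPKM, is named in no header and was read from the deposited numbers: multiplied by the merged exon length of GENCODE M21, a library's values were whole multiples of 1 unit in 95.4% to 95.5% of values (within 0.1 of a whole read). GRCm38 and limma are named in the submitters' processing notes, without role or version; of the aligner, counting tool, strand and annotation nothing is said (not given in the sources used here). Of 34150 IDs, 34097 matched M21 and 53 did not. These units gave 76.1 to 81.1 M reads per library, used for read shares and an alternative only. A count model was not run.

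Families were tested on log2(FPKM + 1) by exact sign-flip permutation, relations by exact permutation, both two-sided with Benjamini-Hochberg adjustment at 0.05. Named genes were the 40 most abundant, the members of 74 families, the top 3 of each of 48 lists with any member reaching 4 times its median, the 15 highest and 15 lowest SD at a mean of 10 FPKM or more (leaving out predicted gene names, Gm with digits or ending in Rik), and the mitochondrial genes; not all are printed. Where a symbol had more than 1 ID, the one with the higher mean was taken. Families, lists and members were chosen with earlier results of these data known. Shared sequence is the share of 50-base stretches of a gene's M21 transcripts found in other genes' transcripts. Promoters are RefSeq's (GRCm38.p6), mitochondrial sequences are from the M21 transcripts. The tests were tested on simulated data. Alternatives were a pseudocount of 0.1, other filters, scalings and read shares, and leaving out each library. Python 3.11.15, numpy 2.4.6, pandas 2.3.3 and matplotlib 3.10.9 were used. The other 12 libraries were not analysed here, and a few results, counted in the totals of families and lists, are not reported here.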

Additional observations from a re-analysis of the deposited data

Results flagged for a closer look

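Values of 1 library far from the other 5 were looked for by Dixon's test of the gap to the nearest library among 382 results (library summaries, family shares, list sums, named genes, and family or list members that reach 1 FPKM in a library, a minimum set after seeing the data). It was met by 20, or 5.24%, and chance alone gives about 1 in 20 such groups. Control 2 held 5 of them, control 4 5, control 6 4, control 1 3, control 5 2 and control 3 1.

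In 6 families the share of the highest member had a library apart, as percent of the family's FPKM: Tnnc1 at 99.965% in control 2 (others 99.987 to 100), Kcnd2 at 75.3% in control 1 (others 91 to 94), Kcnj11 at 63% in control 3 (others 67.7 to 70.02), Sod1 at 68.1% in control 2 (others 59.4 to 62.5), Gpx4 at 64.7% in control 2 (others 58.8 to 59.8), Tead1 at 78.4% in control 4 (others 27.9 to 45).

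Single genes with a high library, in FPKM, were Tcap at 1508 in control 5 (others 873 to 1063), Tead1 at 11.9 in control 4 (others 1.06 to 2.58), Acta1 at 410.4 in control 1 (others 110.4 to 193), Kcnd3 at 1.39 in control 1 (others 0.21 to 0.452), Hcn4 at 2.48 in control 6 (others 1.29 to 1.58), Myl7 at 1.22 in control 2 (others 0 to 0.439), Cntn2 at 2.0 in control 6 (others 0.418 to 0.941), Dcn at 77.1 in control 4 (others 56.4 to 63.9), Dpt at 42.2 in control 4 (others 31.5 to 34.8), Cd79a at 1.07 in control 6 (others 0.225 to 0.516), Jchain at 1.37 in control 4 (others 0.0724 to 0.47), Rps2 at 241 in control 5 (others 170.2 to 188). Low in 1 library were Sbk1 at 1.77 in control 2 (others 13 to 16.3), Tagln at 6.94 in control 6 (others 15.3 to 20.2). The cause of these values was not tested.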

How the results depend on the processing

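By recovered reads in place of FPKM, 60 families were called for the listed member and 7 against it (58 and 10 in the main analysis). The difference then turned for Camk2d (1.19), Vegfb (-0.42), Ckm (0.13), Cox7a1 (-0.17), Sod2 (0.53), Ppara (-0.74), Mef2a (0.42) and Gata4 (-0.21), of which Vegfb, Cox7a1 and Gata4 were no longer called, which follows from leaving out the division by length. A minimum of 5 FPKM for the highest member left the counts at 58 and 10. So did a pseudocount of 0.1, which cannot change the order of members in a library and so could not change these counts. Leaving out 1 library turned no called difference. This was fixed in advance, since a called family has the same order in every library. No test was run on 5 libraries, where the exact sign-flip p cannot go below 0.0625. The mitochondrial share was 32% of recovered reads, 68.7% of FPKM with the nuclear copies and 47.9% for mRNAs only, and 49.8 to 50.5% without each library in turn. The count of genes at 1 or more was 12128 on the TPM scale and 10727 to 10811 without each library. The 10 most abundant genes took 29.3% of recovered reads, the 10 most abundant nuclear genes 13% of nuclear FPKM, and the main share was 48.3 to 49.3% without each library. The median spread was 0.16 with a pseudocount of 0.1, 0.086 with no filter, and 0.12 to 0.13 without each library. It was 0.11 in 1 run of library numbers, where fewer libraries tend to give a smaller SD. Other scalings moved it to between 0.12 and 0.13. The relations of the mitochondrial share stayed at 0 passing tests under every alternative run, with exact permutation adjusted p from 0.15 to 0.988, and 1 of these had an unadjusted p below 0.05. The SD of Msrb2, Vps52, Hspd1 and Ppt1 fell by more than 1.5 times without control 6, control 1, control 2 and control 4 respectively (to 0.0096, 0.015, 0.019 and 0.020). No paired analysis was possible because only the control group is described.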
